A study of Mus musculus with 6 samples.

Results

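The 10 genes described here encode the main cytoplasmic actins of epithelial cells (Actb and Actg1), the monomer-binding proteins thymosin β4 (Tmsb4x), thymosin β10 (Tmsb10) and profilin 1 (Pfn1), the filament-severing protein cofilin 1 (Cfl1), the crosslinkers α-actinin 1 and α-actinin 4 (Actn1 and Actn4), the membrane linker ezrin (Ezr) and the microvillus protein villin (Vil1). They were chosen by name, as 10 of the 52249 genes in the deposited table, with results of these libraries already known, so their differences between groups are given as a description. All 10 passed the filter on low counts. The libraries came from intestinal organoids of the mouse, a culture of epithelium that forms hollow bodies in gel, and all 6 carried a knockout of Apc, a tumour suppressor that restrains WNT signalling. Of these, 3 libraries carried the knockout alone (control), and 3 were also labelled as overexpressing IGF2BP3, an RNA-binding protein (OE-labelled). The labels do not give the age, sex or strain of the mice, the vector or promoter used for overexpression, or whether replicates came from separate cultures, so p-values measure only the spread between these libraries, which may be technical.

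Actin exists as monomers and as filaments, and cells move subunits between both states all the time. Thymosins hold monomers in reserve, profilin delivers them to growing filament ends and cofilin severs old filaments. In the intestinal epithelium, actin bundles fill the microvilli of the brush border, where villin bundles filaments and ezrin ties them to the membrane, and α-actinins crosslink filaments at junctions and in contractile bundles. The Actb mRNA is also a known cargo of IGF2BP1, a paralogue of IGF2BP3, which binds an element just after the stop codon called the zipcode. Both cytoplasmic actin genes are known targets of the transcription factor SRF, which binds a DNA motif called the CArG box.

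Expression was measured by 3′ mRNA sequencing, which reads near the polyadenylated end of each transcript. Library totals ran from 2180087 to 2519886 counts, so that the floor of 3 counts lay between 1.18 and 1.41 CPM (counts scaled to the size of the library). CPM values below also carry TMM factors, which correct for unequal library makeup, and fold changes are OE-labelled minus control on the log2 scale. Means and SDs are over n = 3 libraries in each group. The names of the libraries form a separate series for each group, so a difference between groups and one between library series cannot be told apart. Igf2bp3, the mouse gene of the protein in the label, was detected with 1 count in replicate 1 of each group and 0 elsewhere, under the floor in all 6, so its counts gave no check of the label. Across the transcriptome 29.2% of 10687 tested genes passed an edgeR quasi-likelihood test at a Benjamini-Hochberg adjusted p below 0.05.

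The sequences of the known regulatory elements are shown first, as a description. Their relation to the changes below was not tested. In the longest Actb transcript of GENCODE M21, bases 3 to 31 after the stop codon hold GGACT followed by ACACCC, the recognition letters of the zipcode, which are in capitals.
Actb zipcode: GGACTgttactgagctgcgttttACACCC
This pair of motifs, in either order on the transcript strand and within 30 bases, was searched in the first 100 bases after the stop codon. It was found in 16 of 9919 tested protein-coding genes (0.161%), and in none of the other 9 members. The CArG box was searched in RefSeq promoter windows of GRCm38.p6, from 250 bases before to 50 after the start of transcription, where 9 of the 10 members had an entry (11 windows). Actb had none and was not searched. The general pattern of the box, though not each single box, reads the same on both strands. The box was found in the windows of Actg1 and Vil1, 2 of 11. It was found in 139 of 10763 searched windows of tested genes (1.29%) and in 535 of all 32851 searched windows (1.63%). Not every chromosome was searched. In Actg1 (minus strand, chr11:120348446-120348745) it begins 90 bases before the start, and in Vil1 (plus strand, chr1:74409134-74409433) it begins 73 bases before the start. In both windows the capitals mark the box.
Actg1 promoter: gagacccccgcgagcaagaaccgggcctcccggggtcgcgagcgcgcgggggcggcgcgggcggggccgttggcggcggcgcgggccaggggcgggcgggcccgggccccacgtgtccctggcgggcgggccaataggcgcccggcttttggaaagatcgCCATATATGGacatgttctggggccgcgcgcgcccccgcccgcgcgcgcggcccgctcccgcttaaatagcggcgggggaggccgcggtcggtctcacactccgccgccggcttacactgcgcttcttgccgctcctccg
Vil1 promoter: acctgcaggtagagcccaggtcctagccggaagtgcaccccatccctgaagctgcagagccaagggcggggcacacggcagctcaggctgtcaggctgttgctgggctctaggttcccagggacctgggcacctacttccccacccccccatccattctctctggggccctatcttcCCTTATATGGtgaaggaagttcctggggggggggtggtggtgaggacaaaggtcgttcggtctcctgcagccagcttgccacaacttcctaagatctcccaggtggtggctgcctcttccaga
A match describes these letters only and was not tested as a binding site.

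The counts of the actin genes moved in opposite directions, but Actg1 had at most 48 counts in any library and the Actb call depended on the setting. Actb, which encodes β-actin (chromosome 5, 142903115 to 142906754 in GRCm38, minus strand), was counted at 3076, 2925 and 3011 CPM in control replicates 1 to 3 and at 4497, 3615 and 3440 CPM in the OE-labelled replicates. All OE-labelled libraries lay above all control libraries, with replicate 1 the highest. Actb rose by 0.36 (SE 0.11, edgeR adjusted p = 0.0234). Without OE-labelled replicate 1 the change was 0.18 (edgeR adjusted p = 0.0573), and the call was lost in 9 of 18 other settings, among them the GC offset, a term that removes the trend of fold changes with transcript GC content (0.25, adjusted p = 0.127), DESeq2's test (0.32, adjusted p = 0.0681) and the removal of any 1 control library.

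Actg1, which encodes γ-actin (chromosome 11, 120345690 to 120348542, minus strand), was detected with 48, 40 and 44 counts in replicates 1 to 3 of the control, against 13, 7 and 2 in those labelled OE. These counts correspond to 22.1, 18.8 and 20.3 CPM against 5.27, 2.75 and 0.846 CPM, with no overlap and with OE-labelled replicate 3 under the floor of 3 counts. Actg1 fell by 2.75 (SE 0.37, edgeR adjusted p = 0.000324), and the pooled 132 control and 22 OE-labelled counts give a level 6.84-fold lower (exact 95% interval 4.33 to 11.3, counting error only). Its direction and call held in all 17 other settings in which it was tested, with changes from -3.49 to -2.33. As a share of the counts of both actin genes, Actg1 made up 0.714%, 0.638% and 0.669% in control and 0.117%, 0.0761% and 0.0246% in OE-labelled libraries. The share was lower in each OE-labelled library than in each control library.

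Because the actin genes have many copies in the genome, the last 300 bases of each member's longest transcript were compared with all other annotated transcripts in windows of 50 bases. None of the 251 windows of Actg1 was found in another gene. The 2 miRNA genes that overlap Actg1 on its own strand, Gm23419 and Mir6935, had 0 counts in all libraries. Of the Actb windows, 21 of 251 were also found in Lrrc58, which had 129 to 184.5 counts per library. The genome itself was not searched, so unannotated copies and other 3′ ends of the genes were not tested, and the Actg1 value is uncertain at these low counts. Why Actg1 was counted so far under Actb was not tested. Its counts may therefore not reflect the level of its mRNA or the size of its change. The actin isoforms of muscle (Acta1, Acta2, Actc1, Actg2) and Actbl2 were not tested, since none of the 5 passed the count filter. Among them Acta2 had 1 count in 1 control library and Actg2 had 0 counts in all 6.

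**Figure D1:**
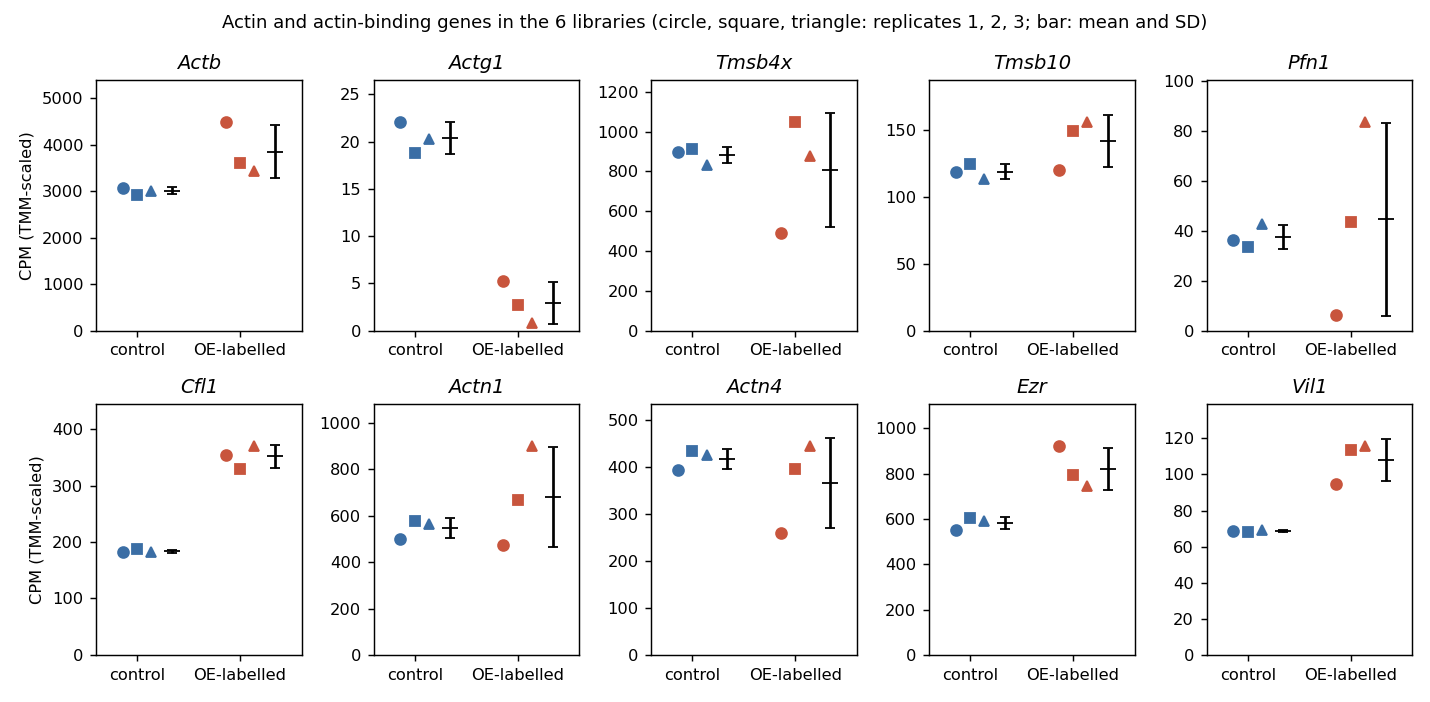
Expression of the 10 genes in TMM-scaled CPM (vertical axes from 0) in control (blue) and OE-labelled (red) libraries. Circles, squares and triangles are replicates 1, 2 and 3, and bars are means with SD (n = 3); Actb, Cfl1, Ezr and Vil1 lie higher and Actg1 lower in all OE-labelled libraries, while Pfn1 runs from 6.08 to 83.7 CPM within that group.

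The monomer-binding members did not pass the test, and the OE-labelled libraries were far apart for Tmsb4x and Pfn1. Tmsb4x (X chromosome, 167207093 to 167209315, minus strand), which encodes the main monomer-sequestering thymosin, was counted at 899, 911 and 835 CPM in control and at 491, 1051 and 880 CPM in OE-labelled replicates 1 to 3. Replicate 1 lay far under every other library, and the other OE-labelled values fell within or above the control range. The difference was -0.13 (SE 0.2, edgeR adjusted p = 0.667), and 0.08 without OE-labelled replicate 1 (adjusted p = 0.544). Tmsb10 (chromosome 6, 72957347 to 72958748, minus strand), a second sequestering thymosin, was counted at 118, 125 and 113 CPM and at 120, 149 and 156 CPM. OE-labelled replicate 1 lay within the control range and the other OE-labelled libraries above it. The difference was 0.26 (SE 0.12, edgeR adjusted p = 0.14), and it passed without OE-labelled replicate 1 (0.31, adjusted p = 0.0322). With the GC offset it was -0.03 (adjusted p = 0.909). Of the Tmsb10 windows at the 3′ end, 195 of 251 also occur in Gm9844, which had 1 count in 1 library and 0 in the rest. The ratio of Tmsb4x to Tmsb10 counts was 7.59, 7.3 and 7.37 in control and 4.09, 7.03 and 5.62 in OE-labelled libraries.

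Pfn1 (chromosome 11, 70651850 to 70654644, minus strand), which encodes the profilin that loads monomers onto growing filaments, had the widest range of any member within the OE-labelled group. Replicates 1 to 3 gave 79, 71 and 93 counts for the control group, against 15, 111 and 198 for the OE-labelled group. In CPM these were 36.4, 33.3 and 42.9 against 6.08, 43.6 and 83.7, so that the OE-labelled group holds both the lowest and the highest value. The highest OE-labelled value was 13.8 times the lowest, against 1.29 times in control. Over 5254 tested genes whose average log2 CPM was 5 or more, the median of this ratio was 1.27 among OE-labelled and 1.14 among control libraries, and 1 gene (the gene model Gm21987, named after its value was seen) exceeded Pfn1. The group difference was 0.24 (SE 0.52, edgeR adjusted p = 0.763). It was 0.7 without OE-labelled replicate 1 (adjusted p = 0.0133) and -0.58 without replicate 3 (adjusted p = 0.351). No annotated gene overlaps Pfn1, and none of its 251 windows was found in another gene.

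Cfl1 (chromosome 19, 5490455 to 5495201, plus strand), the severing factor that returns filaments to monomers, showed the opposite picture, with tight replicates and a clear separation. It was counted at 183, 187 and 182 CPM in control and at 355, 330 and 370 CPM in OE-labelled libraries. No value overlapped, and the mean was 1.91 times as high. Cfl1 rose by 0.93 (SE 0.1, edgeR adjusted p = 9.92e-05), with changes from 0.82 to 0.98 and a call in all 18 other settings. Snx32 shares 468 exonic bases with Cfl1 on the opposite strand and had 12 to 19 counts per library, against 396 to 876 for Cfl1. All 251 windows at the 3′ end of Cfl1 also occur in Snx32 on that strand. In reverse, 1 window also occurs in Gas2l3, which had 35 to 75 counts per library. Whether the counting used strand is not given in the sources used here.

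The α-actinins did not pass the test. Actn1 (chromosome 12, 80167547 to 80260371, minus strand) was counted at 498, 576 and 566 CPM in control and at 473, 667 and 902 CPM in OE-labelled replicates 1 to 3. Replicate 1 lay under the control range and the other OE-labelled libraries above it. The difference was 0.32 (SE 0.18, edgeR adjusted p = 0.202), and 0.46 without OE-labelled replicate 1 (adjusted p = 0.00233). Actn4 (chromosome 7, 28893248 to 28962340, minus strand) was counted at 394, 434 and 424 CPM and at 259, 394 and 444 CPM. Here too OE-labelled replicate 1 was the lowest library, and the groups overlapped (-0.19, SE 0.16, edgeR adjusted p = 0.396). The ratio of Actn1 to Actn4 counts, which is free of library scaling, was 1.27, 1.33 and 1.33 in control and 1.82, 1.69 and 2.03 in OE-labelled libraries, higher in 3 of 3. The last 300 bases of Actn4 lie within Capn12 on the opposite strand, which had 0 counts in all libraries. The muscle paralogues Actn2 and Actn3 had at most 1 count in any library.

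Both members of the microvillus rose. Ezr (chromosome 17, 6738041 to 6782784, minus strand), which links filaments to the apical membrane, was counted at 552, 603 and 591 CPM in control and at 923, 795 and 744 CPM in OE-labelled libraries. Every OE-labelled library lay above every control library, with replicate 1 the highest. Ezr rose by 0.5 (SE 0.1, edgeR adjusted p = 0.00418), and 0.32 with the GC offset (adjusted p = 0.0464). Vil1 (chromosome 1, 74409376 to 74435559, plus strand), which bundles and severs filaments in the brush border, was counted at 68.7, 68 and 69.1 CPM and at 94.8, 113 and 116 CPM. The control values were within 1.02 times of each other, and all OE-labelled values were higher. Vil1 rose by 0.65 (SE 0.12, edgeR adjusted p = 0.0022), with changes from 0.46 to 0.7 and a call in all 18 other settings. Usp37 shares 49 exonic bases with Vil1 on the opposite strand and had 36 to 56 counts per library.

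In all, 4 members passed as higher and 1 as lower, that is 40% and 10% of the 10, where 16.5% and 12.7% of all tested genes did so. Control and OE-labelled values were fully separated for these same 5 members, where 25.3% of all tested genes were higher and 20.5% lower without overlap (45.7% in all). Since the members were chosen with this contrast known, these counts are a description only. The median change of the members was 0.29, beside 0.04 over all genes tested. Summed over the 10 members, the level was 5847, 5880 and 5856 CPM in control and 7224, 7162 and 7137 CPM in OE-labelled libraries. The sum varied little within the OE-labelled group (SD 44.5, n = 3), although Actb alone ranged from 3440 to 4497 CPM there, while Tmsb4x, Actn1, Actn4 and Pfn1 were lowest in the library where Actb and Ezr were highest.

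**Figure D2:**
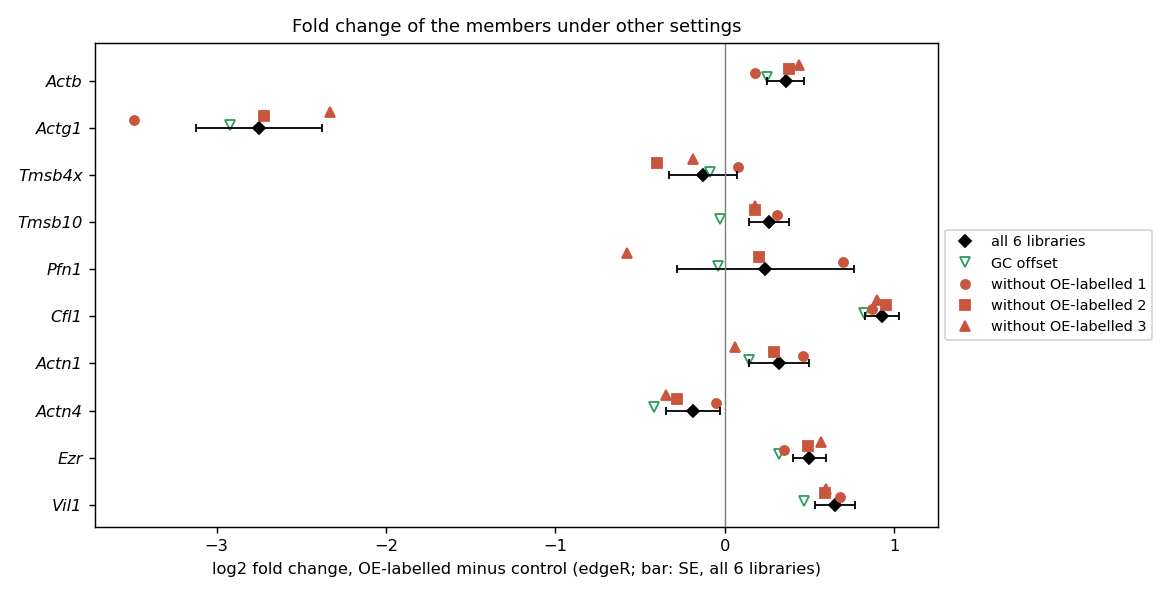
Log2 fold change of each gene (horizontal axis, OE-labelled minus control) from edgeR with all 6 libraries (diamond, bar: SE), with the GC offset and without each OE-labelled library. Actb, Actg1, Cfl1, Ezr, Vil1, Actn1 and Actn4 stay on one side of 0 in each setting shown, whereas Pfn1 runs from -0.58 to 0.7. Actn1 and Actn4 were not called with all 6 libraries. Actb lost its call with the GC offset and without OE-labelled replicate 1 or 2.

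The order of the OE-labelled libraries divided the members. OE-labelled replicate 1 was the lowest of its group for 6 members (Tmsb4x, Tmsb10, Pfn1, Actn1, Actn4 and Vil1) and the highest for 3 (Actb, Actg1 and Ezr). Over all tested genes it was the lowest for 36.8% and the highest for 36.3%. Replicate 3 was the highest for 6 members (Tmsb10, Pfn1, Cfl1, Actn1, Actn4 and Vil1), against 36% of all tested genes. Relative to the control mean, replicate 1 stood at -2.63 for Pfn1, -0.85 for Tmsb4x, -0.69 for Actn4 and -0.21 for Actn1 on the log2 scale, and at 0.58 for Actb and 0.67 for Ezr. Replicate 3 stood at 1.16 for Pfn1, 0.09 for Actn4 and 0.72 for Actn1, and at 0.2 for Actb and 0.35 for Ezr. The control libraries lay within 0.19 of their mean for every member. The cause of this spread was not tested. The GC content of the longest transcript ran from 47.5% (Tmsb4x) to 59.2% (Pfn1) over the members, with a median of 49.7% over tested genes, and Pfn1 and Tmsb10 (58.7%), the members richest in GC, took the opposite sign with the GC offset (-0.04 and -0.03).

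**Figure D3:**
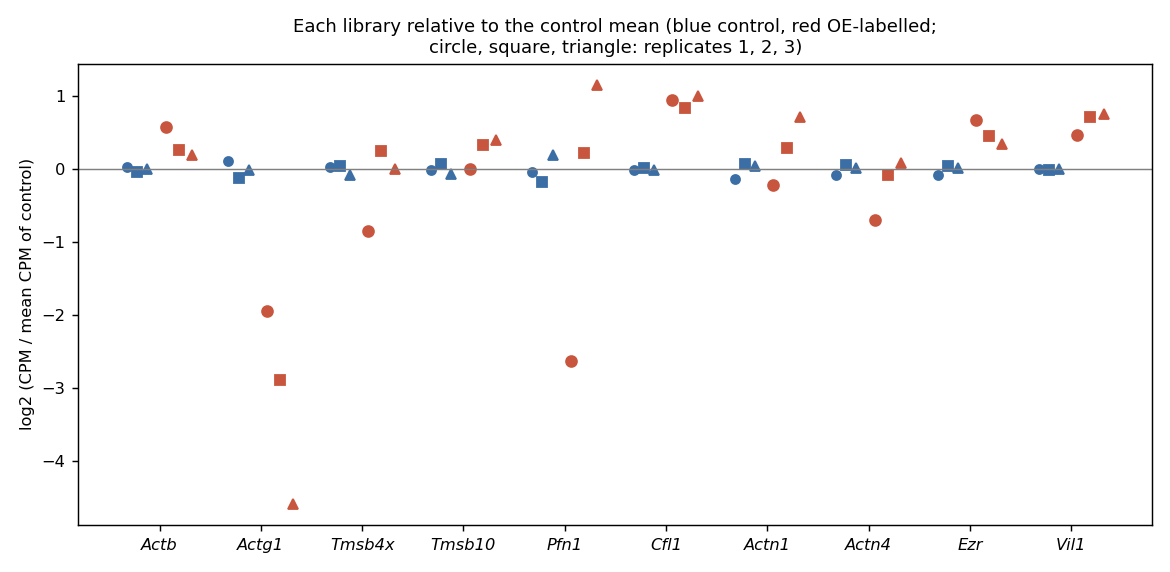
Log2 ratio of each library's CPM to the control mean (vertical axis) for the 10 genes, control in blue and OE-labelled in red, with circles, squares and triangles for replicates 1, 2 and 3. OE-labelled replicate 1 stands lowest for Pfn1 (-2.63), Tmsb4x (-0.85) and Actn4 (-0.69) and highest for Actb (0.58) and Ezr (0.67).

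Other genes of the actin cytoskeleton were then described in 10 lists, written from general knowledge of the field. Earlier results of these data were known by then, so the counts are a description only. Of 171 listed genes that the files hold, 138 were tested, and 39 of these rose and 19 fell (28.3% and 13.8%, beside 16.5% and 12.7% of all tested genes). The median change of the 138 genes was 0.12. The split changed with the GC offset, under which 20 list genes rose and 22 fell and the median was -0.02. With DESeq2 size factors 33 rose and 22 fell, with library totals 42 and 17, and without mitochondrial and ribosomal RNA genes 32 and 26. The 58 calls compare with 31 when control replicate 2 was left out, 33 without control replicate 3 and 34 without control replicate 1.

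Of the genes for monomer binding and filament turnover, 3 of 13 rose and 1 fell (23.1% and 7.69%, median -0.07). Over all tested genes 16.5% rose and 12.7% fell. Destrin (Dstn), a cofilin paralogue that disassembles filaments, had a mean of 578 (SD 31.2) in control against 395 (SD 57.7) in the OE-labelled group, in CPM, and fell by 0.55 (SE 0.12, edgeR adjusted p = 0.00421), while Cfl1 rose. The muscle-type cofilin Cfl2 had means of 68.6 (SD 8.45) in control and 52.5 (SD 10.2) in OE-labelled libraries, in CPM, and a difference of -0.39 (edgeR adjusted p = 0.0852). Profilin 2 (Pfn2) had means of 12.5 (SD 1.05) and 10.6 (SD 4.38) in CPM, a difference of -0.24 (edgeR adjusted p = 0.573). The filament-binding coronins Coro1c and Coro1b rose by 0.78 and 0.52 (edgeR adjusted p = 0.00374 and 0.00478).

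The Arp2/3 complex starts branched filaments, and of the genes for this complex and its promoters 8 of 18 rose and 1 fell (44.4% and 5.56%, median 0.33). Over all tested genes 16.5% rose and 12.7% fell. The subunits moved apart. Arpc1b had a mean of 830 (SD 19.3) against 1269 (SD 89.9) in CPM and rose by 0.61 (SE 0.09, edgeR adjusted p = 0.000637). Arpc5 rose by 0.58 (edgeR adjusted p = 0.00197), Arpc3 by 0.41 (adjusted p = 0.0193) and Arpc4 by 0.4 (adjusted p = 0.0418). The call of Arpc3 was lost in 6 of 18 other settings and that of Arpc4 in 12. Actr2, one of the actin-related subunits that form the start of the branch, fell by 0.72 (SE 0.17, edgeR adjusted p = 0.00695), its mean going from 118 (SD 11.2) to 71.5 (SD 18.1) in CPM. Its partner Actr3 stood at -0.38 (edgeR adjusted p = 0.0599). The subunits Arpc1a (0.29), Arpc2 (-0.18) and Arpc5l (0.05) did not pass (edgeR adjusted p = 0.133, 0.158 and 0.751). Formins and related nucleators build unbranched filaments, and 4 of 12 of their genes fell and 1 rose (33.3% and 8.33%, median -0.26). Fmnl2, at a mean of 54.1 (SD 1.4) in control and 22.4 (SD 3.46) in OE-labelled libraries in CPM, fell by 1.27 (SE 0.16, edgeR adjusted p = 0.000217), Spire2 by 1.16 and Diaph1 by 0.5 (adjusted p = 0.0163 and 0.016).

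Capping and severing genes split evenly, with 4 of 14 higher and 5 lower (28.6% and 35.7%, median 0.18). Gelsolin (Gsn), a severing and capping protein of the villin family, rose by 1.04 (SE 0.13, edgeR adjusted p = 2e-04), with means of 82.4 (SD 6.97) in control and 170 (SD 21.8) in OE-labelled libraries, in CPM. Advillin (Avil), another member of that family, rose by 0.93 (edgeR adjusted p = 0.00072), and α-adducin (Add1), which caps filaments in the membrane skeleton, rose by 0.74 (adjusted p = 0.000637). Among crosslinkers 3 of 19 rose and 2 fell (15.8% and 10.5%, median -0.04), near the 16.5% and 12.7% of all tested genes. Filamin A (Flna) rose by 0.85 and Lasp1 by 0.7 (edgeR adjusted p = 0.000343 and 0.000339), while the spectrin gene Sptbn1 fell by 0.69 (adjusted p = 0.00121). Plastin 1 (Pls1) and espin (Espn), which bundle microvillus filaments together with villin, differed by -0.2 and -0.3 (edgeR adjusted p = 0.507 and 0.636), and Espn had only 5 to 12 counts per library.

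Moesin (Msn), a paralogue of ezrin, fell by 1.07 (SE 0.11, edgeR adjusted p = 8.82e-05), with means of 193 (SD 16.8) in control and 92.1 (SD 1.57) in OE-labelled libraries, in CPM, and radixin (Rdx) stood at -0.14 (adjusted p = 0.317). Slc9a3r1, the scaffold that binds ezrin at the apical membrane, rose by 0.59 (edgeR adjusted p = 0.00472), and the adhesion adaptor Pxn rose by 0.58 (adjusted p = 0.00763). In this list of membrane linkers 4 of 14 rose and 2 fell (28.6% and 14.3%, median 0.1). Of brush border genes 4 of 10 rose and 0 fell (median 0.31), where 16.5% of all tested genes rose and 12.7% fell, and the calls of the 3 genes named next were lost with the GC offset (adjusted p = 0.153, 0.176 and 0.0631). Misp rose by 0.56 (edgeR adjusted p = 0.00895), and Baiap2l2 by 0.86 (adjusted p = 0.0279) on 13 to 45 counts per library, a call lost in 6 of 17 other settings. The brush border myosin Myo1a rose on few counts, 7, 0 and 7 for the control replicates against 27, 17 and 11 (edgeR adjusted p = 0.0369), a call lost in 6 of 16 other settings.

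Of tropomyosins and myosins 5 of 19 rose and 2 fell (26.3% and 10.5%, median 0.2), beside 16.5% and 12.7% of all tested genes. The myosin light chains Myl6 and Myl12b rose by 0.77 and 0.62 (edgeR adjusted p = 0.000637 and 0.00364), and the non-muscle heavy chain Myh10 fell by 1.28 (adjusted p = 0.000664). Among the list genes named here, the calls of Coro1b, Slc9a3r1, Pxn, Arpc4, Misp, Baiap2l2 and Myo1a were lost with the GC offset. Coro1b, Coro1c, Cfl2, Arpc1a, Arpc1b, Arpc4, Arpc5l, Avil, Add1, Sptbn1, Msn and Myl12b share exonic bases with at least 1 other annotated gene, so their counts are uncertain.

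**Figure D4:**
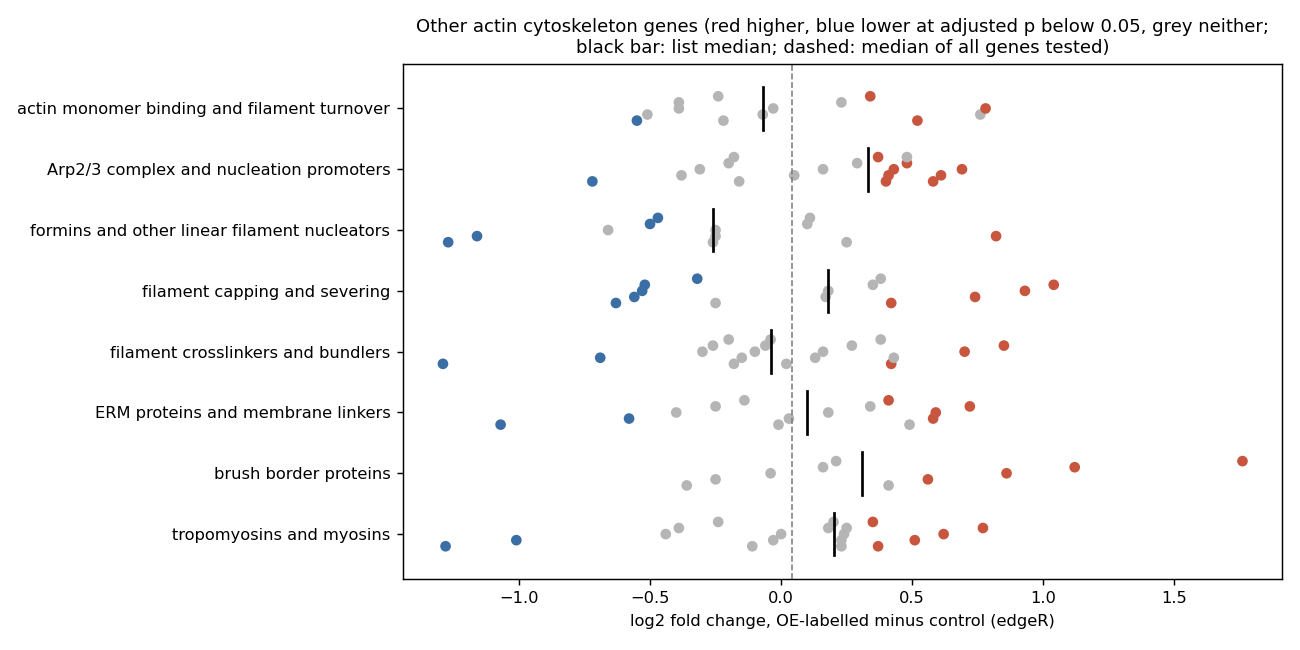
Log2 fold change (horizontal axis, OE-labelled minus control) of each tested gene of 8 actin cytoskeleton lists, red where it rose and blue where it fell (threshold 0.05), with the list median as a bar and the median of all genes tested (0.04) dashed. The lists were tested as single genes, not as sets. As allotted here, brush border genes include 4 of 10 higher and 0 lower, and formins and related nucleators 1 of 12 higher and 4 lower. Of all tested genes 16.5% were higher and 12.7% lower. The brush border calls of Misp, Baiap2l2 and Myo1a were lost with the GC offset.

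Markers of cell types were set beside these results. The epithelial list was counted at 4206 to 4434 CPM in control libraries against 5481 to 6235 CPM under the OE label, with Epcam not called (0.07, edgeR adjusted p = 0.586), Krt8, Krt18, Krt19 and Cldn3 higher, Cldn7 lower, and Krt20 and Cdx1 at 0 counts. Although Vil1 rose, the list of absorptive enterocytes, the cells that carry the brush border, was low. Its 13 genes summed to 23 to 29 CPM in control libraries against 17.8 to 31.7 CPM under the OE label. Of these genes 7, with Alpi, Fabp1 and Sis, had 0 counts in all libraries. Of the 2 tested 0 were higher and 1 (Apob) was lower. Apob had only 10, 13 and 16 counts in control replicates and 1, 0 and 1 in OE-labelled replicates, the latter under the floor. The other tested gene, Dpp4, made up most of the sum and was not called (edgeR adjusted p = 0.566). It was counted at 15.7 to 22.6 CPM in control and 16.6 to 29.6 CPM in OE-labelled libraries. The fibroblast list summed to 168 to 197 CPM and 136 to 225 CPM, nearly all of it Fn1, with Col1a2, Col3a1, Dcn, Lum, Pdgfrb and Thy1 at 0. The smooth muscle list summed to 19.8 to 28.1 CPM and 16.6 to 21.1 CPM, with Actg2 and Synpo2 at 0. The immune list summed to 42.2 to 50.7 CPM and 59.2 to 76.6 CPM, of which 1 gene (Csf1r) was higher. The T-cell, macrophage and myeloid genes Cd3e, Adgre1, Lyz2 and Tyrobp were at 0. Cd68 of the same list was detected in all libraries, at 13.6 to 17.5 CPM in control and 14.8 to 20.3 CPM under the OE label. It was not called (edgeR adjusted p = 0.575). The endothelial list summed to 12 to 17 CPM and 12.7 to 26.3 CPM. Their part in the results on the members was not tested. In bulk libraries, fewer cells of a type and less RNA per cell cannot be told apart.

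The named genes whose pattern over the 6 libraries came closest to a member were found by the Euclidean distance between centred log2(CPM + 0.5) values, as a description. Unnamed gene models and genes of average log2 CPM under 3 were left out, so a closer gene among those is possible. Closest to Actb were Wfdc2 (distance 0.07), Pttg1ip (0.08) and Timm17b (0.1). Closest to Vil1 were Ssbp3 (0.09), Zfp706 (0.09) and Tspan3 (0.12). For Actg1 the closest genes, H1f4 (1.2), Dzip1l (1.25) and Snord89 (1.28), lay much farther away, with changes of -2.46, -2.07 and -3.05. The Actg1 pattern rests on 13, 7 and 2 counts in the OE-labelled libraries, so these distances carry counting error and are uncertain.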

How the data were processed

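Total RNA of intestinal organoids, 3 libraries per group, was sequenced with a QuantSeq 3′ forward kit, per the labels' protocols. The values that the authors deposited are estimated counts of 52249 genes, without normalization. Per the submitters' processing notes, STAR, HTSeq, mm10 and GRCm38 were used. The annotation, strand setting and treatment of multi-mapping reads and molecular identifiers are not given in the sources used here. Of the values 2843 were fractional, none of them of a member, and all were rounded, a step that the planned design, written for whole numbers, did not include.

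The quasi-likelihood test (edgeR 4.0.16, R 4.3.3) compared the groups after filterByExpr and TMM scaling, without covariates, with Benjamini-Hochberg adjustment over 10687 genes and a threshold of 0.05. Each standard error is the log2 fold change over the root of F. The fit was tested on simulated data. Members and gene lists were chosen with earlier results of these data known. Named genes were the members, up to 3 list genes with the smallest p per list, named relatives of members, and for Actb, Actg1 and Vil1 the 3 nearest genes of average log2 CPM of at least 3. Unnamed gene models were left out of the nearest genes. The values of 1 gene list, which stays in the counts over all lists, and of 1 marker gene are not reported here. Positions, overlaps and GC content came from GENCODE M21 (99.5% of identifiers found) and promoters from RefSeq. Alternatives were DESeq2 1.42.0 and its size factors, limma-voom (limma 3.58.1), library totals, other filters, equal depth, removal of mitochondrial and ribosomal RNA genes, a GC offset (loess, span 0.5), unrounded counts, the replicate block and leaving out each library. Counting intervals and floors cover counting error only, since molecular identifiers are not stated.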

Additional observations from a re-analysis of the deposited data

How the results depend on the processing

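Of 179 values of the 10 members in 18 other settings, 157 stayed on their side of the threshold with the same sign, 10 lost the call, 4 gained one and 8 changed sign without passing. Actg1, Cfl1 and Vil1 kept both wherever tested. With the replicate block (the replicate number as a factor) and the GC offset 2 members were higher (Cfl1 and Vil1) and 2 lower, Actn4 among them at -0.46 (adjusted p = 0.014), and Ezr lost its call (0.32, adjusted p = 0.0547). With at least 50 counts in 3 libraries 0 members were lower, because Actg1 was not tested. The sign of Pfn1 changed with limma-voom (-0.41), the replicate block (-0.01), the GC offset (-0.04), both (-0.29) and without OE-labelled replicate 3 (-0.58, the lowest of the values without single libraries, with 0.7 the highest). Tmsb10 became -0.03 with the GC offset and -0.04 with the block and GC offset, and Tmsb4x ran from -0.4 to 0.08 without single libraries. Rdx stood at 0.01 under the GC offset and also when the block was added. Arpc5l became -0.01 without mitochondrial and ribosomal RNA genes and ran from -0.06 to 0.11 without single libraries.

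Leaving out single libraries gave 1748 to 3532 calls over all genes, beside 3118 with all 6, the lowest without control replicate 3. For the list genes it gave 31 to 66 calls, 20 to 41 higher and 11 to 26 lower. DESeq2's test called 22 list genes higher, the GC offset 20, and the block and GC offset 20. The share of higher calls over all genes was 56.6% under TMM, 49.9% under the size factors of DESeq2 and 63.8% under library totals. The replicate block gave 3112 calls, 2958 of them shared, and 5 member calls. Deviations of equally numbered libraries correlated at 0.097, 0.018 and 0.069 across genes, and those of unequally numbered libraries at -0.11 to 0.042. These small values do not decide whether the numbers pair the libraries. The labels do not state a pairing, so the block was kept as an alternative. Of 676 values of 38 list genes, 613 kept direction and call. The cause of these changes was not tested. At these depths, Actg1, Myo1a, Spire2 and Baiap2l2 rest on fewer than 50 counts in each library.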
